A study of Mus musculus with 4 samples.

Results

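The replication-dependent histone genes are the genes whose transcripts supply H1, H2A, H2B, H3 and H4 proteins while DNA is copied. They were chosen by symbol, as every listed gene whose name begins with Hist1h, Hist2h, Hist3h or Hist4h and whose FPKM was above 0 in at least 1 library. FPKM counts sequenced fragments relative to transcript length and to the size of the library, so levels of different genes can be set side by side per length. Of 68 such symbols among the 21499 in the files, 50 met this rule and 18 were listed at 0 in every library. The members comprise 6 H1, 9 H2A, 12 H2B, 11 H3 and 12 H4 genes. The choice used only whether a value was above 0, so which genes are detected is given as a description. Hist4h4, whose mean FPKM of 0.0308 was the lowest of the members, stands just inside the rule, and the 18 genes at 0 stand just outside it.

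The values come from lung tissue of 2 Lf-/- mice, which lack lactoferrin, and 2 WT mice, 1 library per mouse. All 4 mice were C57B/L6 animals labelled as male, and were 8 weeks old when 200000 B16-F10 melanoma cells were injected into the tail vein. They were killed at the end of week 3. The tissue was cut from around the metastatic colonies and is labelled as free of tumour cells, and 10 mice per genotype had been injected. The labels do not say how the Lf-/- allele was made.

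Histone genes of this class work unlike other protein-coding genes. They are transcribed in bulk in S phase, have no introns as a rule, and their transcripts end just after a short hairpin that is bound by the stem-loop binding protein SLBP, in place of a poly(A) tail. Some of them also give longer transcripts that run past the hairpin, or splice around it, and end in a poly(A) tail, and such forms are known from cells that do not divide. Replication-independent genes such as H3f3a and H3f3b supply histones to chromatin outside S phase. Whether poly(A)-tailed RNA was selected for these libraries is not given in the sources used here.

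The hairpin was searched in the GENCODE vM21 transcripts (GRCm38) as GGNNCTTNNNAGNNCC, on the transcript strand, with the 6 bases of each arm required to pair across a loop of 4 bases. It was present in 46 of the 68 listed histone genes (67.6%) and in 96 of 55341 genes with an annotated transcript (0.173%). The commonest form, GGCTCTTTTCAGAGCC, was held by 26 genes of types H1, H2A, H2B and H3 and by no H4 gene, and 7 H4 genes held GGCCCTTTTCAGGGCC. The sites below belong to members with measurable levels and show how alike this end is across histone types. Capitals mark the hairpin, and the letters on each side are its neighbours.
Hist1h1c: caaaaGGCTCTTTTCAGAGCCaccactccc
Hist1h2be: ccaaaGGCTCTTTTCAGAGCCacccaacag
Hist3h2a: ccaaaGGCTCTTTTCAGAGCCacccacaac
Hist2h3c1: acaaaGGCTCTTTTCAGAGCCaccacagct
Hist2h3c2: acaaaGGCTCTTTTCAGAGCCaccacagct
Hist1h4h: ccaaaGGCCCTTTTCAGGGCCgcccacatt
Hist1h4i: ttaaaGGCCCTTTTTAGGGCCaccacaaaa
The sites of Hist2h3c1 and Hist2h3c2 are the same letter for letter, and both H4 genes carry a stem that differs from that of the other types.

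Levels are given next by where the annotated transcript ends. In 23 genes the annotated transcript ran more than 100 bases past the hairpin, and all 23 were members, with a median of their mean FPKM of 0.765. In another 23 genes the transcript stopped within 100 bases of the hairpin, and 13 of these were members, with a median over all 23 of 0.0511. No hairpin was annotated in the remaining 22 genes, of which 14 were members, with a median of 0.0819. These classes are a description, because the annotated ends rest on the transcripts that others have cloned. Each gene of the class that stops within 100 bases had a near copy among the listed genes, by the match count given below. Most genes with an extended transcript had none by that count, which favours short transcripts. Transcript end and the assignment of shared reads can therefore not be told apart in these medians. Of the 13 members that reached 1 FPKM or more in 2 or more libraries, 9 had an extended transcript, 2 ended near the hairpin and 2 had no annotated hairpin. Those with no annotated hairpin were Hist1h2bc and Hist2h2be, and the transcripts of Hist1h4h and Hist1h4m stop 46 and 3 bases past it.

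**Figure D1:**
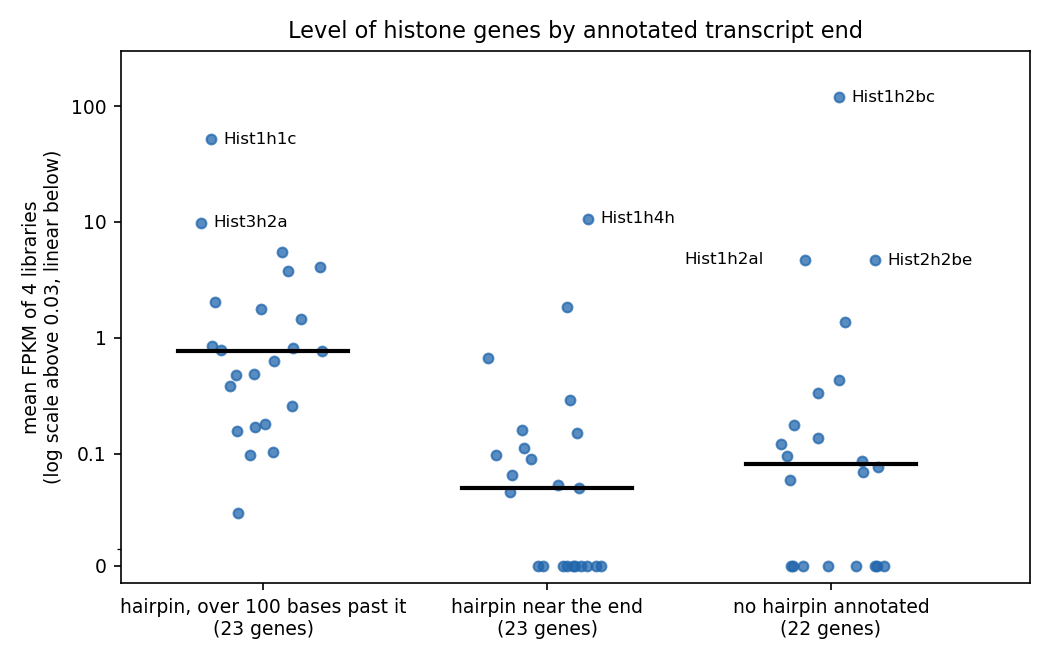
Mean FPKM over the 4 libraries for each of the 68 listed histone genes, on an axis that is logarithmic above 0.03 and linear below, grouped by the annotated end of the transcript. Each point is a gene and each bar the median of its class: 0.765 for 23 genes annotated over 100 bases past the hairpin, 0.0511 for 23 that end near it and 0.0819 for 22 with no hairpin. Every gene that ends near the hairpin has a near copy among the listed genes.

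A pair of genes carried most of the signal. Hist1h2bc and Hist1h1c made up 73.5% of the FPKM summed over all members, and 3 members had a mean of at least 10. At the other end, 37 members did not reach 1 FPKM in 2 libraries, and 30 of these had a mean under 0.5. Of the 37, 10 were above 0 in all 4 libraries and 13 in only 1. The genes lie in 4 groups. In GRCm38 the Hist1 genes other than Hist1h2al lie on chromosome 13 between 21715763 and 23934851, and the Hist2 genes on chromosome 3 between 96219865 and 96270132. The Hist3 genes lie on chromosome 11 between 58948920 and 58956830, and Hist4h4 on chromosome 6 from 136801553 to 136804415. Of the 13 higher members 9 were Hist1, 3 were Hist2 and 1 was a Hist3 gene.

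Many of these genes are near copies of each other, which limits what a single value means. Counting matches with 95% or more identity along 50% or more of a transcript, 28 of the 50 members matched another listed histone gene, as did 15 of the 18 genes at 0. Among the 13 higher members 3 did so, namely Hist1h4h, Hist1h4m and Hist2h3c2. The 50% refers to the gene's own transcript, so a gene with a long transcript can be left out though others match it. Hist2h3c2 matched Hist2h3c1, Hist1h2bl matched Hist1h2bc and Hist1h2be, and Hist1h4h matched Hist1h4i, but not the reverse. How reads with several matches were counted is not given, so values of the 28 are uncertain. Values of genes matched only in this way, Hist1h2bc among them, may be uncertain too. Zeros are uncertain too, since 14 genes of the whole series were listed at 0 in a library and at 10 or more in another. Gapdh, used by every cell, was listed at between 0.0458 and 0.0893, while Actb had between 1003 and 1124.

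The libraries differed in ways that bear on every comparison. Ltf, the lactoferrin gene, had 0.104 and 0.533 FPKM in Lf-/- mice 1 and 2, against 79.2 and 7.32 in WT mice 1 and 2, in the order the labels imply. Eif2s3y and Ddx3y, on the Y chromosome, had 22 to 24.2 and 12.1 to 14.5 in the Lf-/- mice. In the WT mice they were at or near 0, which goes against the label of male for both WT libraries. Sex may therefore differ with genotype, and genotype and sex cannot be told apart in any comparison here. Lung markers were high, with Sftpc (surfactant protein C) between 17185 and 21592 and Pecam1 (endothelium) between 153 and 168. Scgb1a1, of club cells, was listed at 0 in Lf-/- mouse 2 and between 60454 and 72936 elsewhere. Absolute depth is unknown, and between 16037 and 16369 genes were above 0 in a library. Over those 3682 genes of the series whose mean was under 0.5, 71.6% and 74.2% were above 0 in Lf-/- mice 1 and 2, against 80.7% and 76.3% in WT mice 1 and 2. Of 30 such histone members, 43.3% and 70% were above 0 in Lf-/- mice 1 and 2, against 63.3% and 40% in WT mice 1 and 2.

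No histone gene was called different between the genotypes by the test. Ltf itself was not called either (log2 difference -4.31, SE 1.09, adjusted p = 0.89 by limma). The lack of a call is therefore not evidence that a gene did not differ. With limma on log2(FPKM + 1) over 12573 genes, 0 of the 13 members that passed the filter were called at a Benjamini-Hochberg adjusted p of 0.05, and 0 of 13 had an unadjusted p under that value. Over all genes 3 were called, a share of 0.0239% (0.0159% higher and 0.00795% lower in Lf-/- lung), and 642 had an unadjusted p under 0.05. The 2 genes called higher were Eif2s3y and Ddx3y (adjusted p = 0.0103 and 0.0241 by limma). Both lie on the Y chromosome, so these calls cannot be assigned to genotype rather than sex. The smallest adjusted p of a member was 0.89, for Hist1h1e. The differences had a median of 0.07 on the log2 scale, beside -0.005 over all genes tested, with 10 members higher and 3 lower in Lf-/- lung. The 2 Lf-/- mice lay apart: mouse 1 was below both WT mice in 7 of 13 members, mouse 2 was above both in 9, and 6 members showed both, an order found in 4.97% of all genes tested. Of the 13, 9 were highest in Lf-/- mouse 2, beside 23.8% of genes tested, and 7 were lowest in Lf-/- mouse 1, beside 15.9%. Hist1h1e, which passed the filter through the Lf-/- libraries alone, enters the median and is among the 10 higher members. It is also among the 9 with mouse 2 above both WT mice and the 9 highest in Lf-/- mouse 2. Its part in these counts is not read as a result. Over all 50 members 24 were highest in Lf-/- mouse 2, beside 22.5% of genes above 0 in any library, and 16 in WT mouse 1, beside 28.7%.

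**Figure D2:**
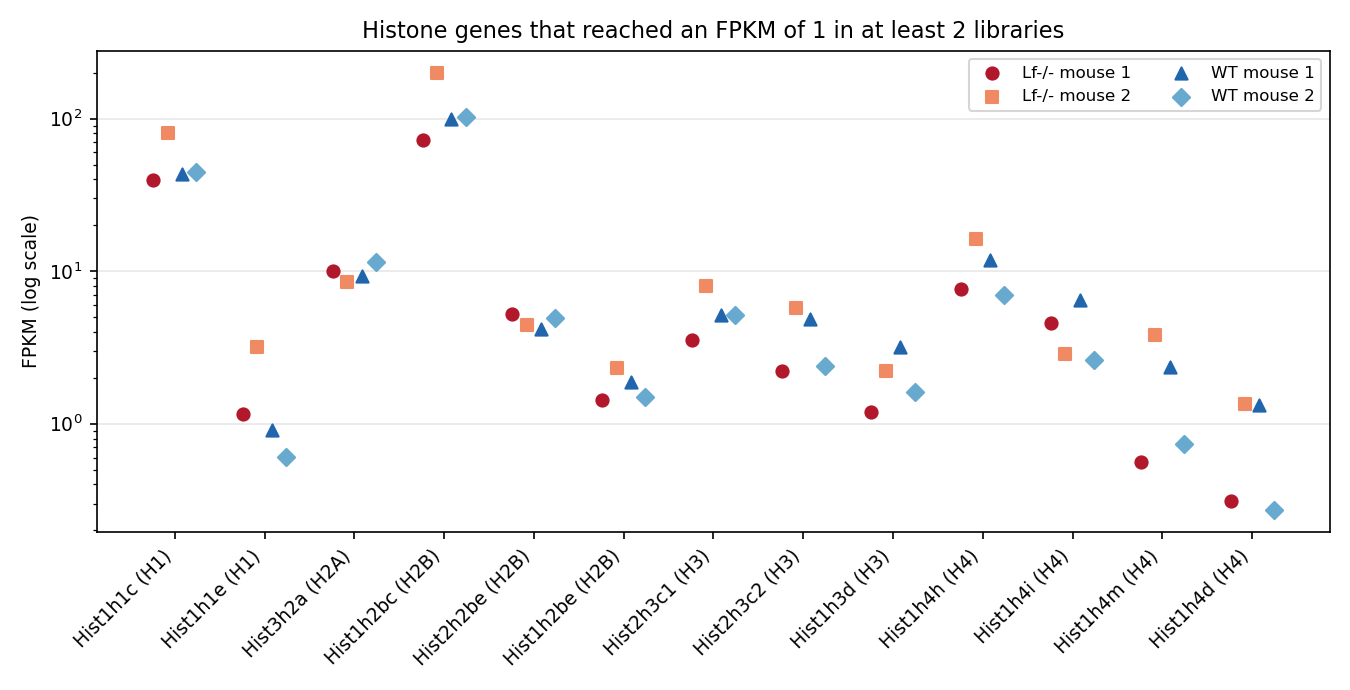
FPKM on a log axis in each library for the 13 histone genes that reached 1 FPKM in 2 or more libraries, grouped by histone type, with Lf-/- mice left of WT mice. Hist1h2bc and Hist1h1c stand highest, and 9 of the 13 genes are highest in Lf-/- mouse 2. Hist1h1e, among those 9, passed the filter through the Lf-/- libraries alone.

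H2B genes had the highest sum, and Hist1h2bc made up between 89.5% and 93.3% of it in each library. H2B pairs with H2A in the nucleosome core. Hist1h2bc had 72.3 and 200 FPKM in Lf-/- mice 1 and 2, against 99.2 and 103 in WT mice 1 and 2. The Lf-/- mice lay on either side of the WT mice. The log2 difference was 0.25 (SE 0.49, adjusted p = 0.952 by limma), and it was -0.48 without Lf-/- mouse 2 and 0.98 without Lf-/- mouse 1. Hist2h2be, a Hist2 gene, varied little, with 5.21 and 4.47 in Lf-/- mice 1 and 2 against 4.17 and 4.93 in WT mice 1 and 2. Hist1h2be had 1.43 and 2.33 in Lf-/- mice 1 and 2, against 1.88 and 1.49 in WT mice 1 and 2. Both of these genes overlapped between genotypes. The other 9 H2B members did not pass the filter, the highest being Hist1h2bn, with 0.296 and 3.50 in Lf-/- mice 1 and 2 against 0.945 and 0.784 in WT mice 1 and 2.

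The annotated Hist1h2bc transcript is spliced and holds no hairpin, and its intron was not searched for one. Its exon 1 (chromosome 13, 23684199 to 23684621, plus strand) holds the whole coding sequence and ends 9 bases after the stop codon. An intron of 7554 bases follows, and exon 2 runs from 23692176 to 23692908. Hist1h2ac, an H2A gene, starts 251 bases away on the other strand, and the pair faces away from a common stretch. Of such pairs, with starts no more than 500 bases apart, 12 were found among the listed genes, each an H2A and an H2B gene, with starts 176 to 306 bases apart. In 2 of the 12 pairs 1 gene passed the filter and its partner did not, and in the other 10 neither gene passed. Hist1h2ac had 0.241 and 2.24 FPKM in Lf-/- mice 1 and 2, against 0.726 and 0.201 in WT mice 1 and 2. Its mean of 0.852 compares with 119 for Hist1h2bc. In the other pair Hist2h2be had a mean of 4.69 and its partner Hist2h2ac 0.0511.

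The stretch between Hist1h2ac and Hist1h2bc is printed because both genes start from it and their levels differ so widely. It is chr13:23683949-23684198, plus strand, from the RefSeq promoter table of GRCm38.p6, and reads towards Hist1h2bc. Capitals mark matches, on either strand, to CCAAT, to the TATA box letters TATAA and to the octamer ATTTGCAT, which is known from H2B promoters.
Hist1h2ac-Hist1h2bc: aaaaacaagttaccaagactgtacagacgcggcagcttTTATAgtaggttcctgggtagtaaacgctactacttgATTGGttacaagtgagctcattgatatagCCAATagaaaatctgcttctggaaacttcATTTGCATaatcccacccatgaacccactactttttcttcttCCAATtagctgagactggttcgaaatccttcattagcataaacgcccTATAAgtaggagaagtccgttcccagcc
The stretch holds 3 CCAAT matches, 2 TATAA matches, 1 facing each gene, and 1 octamer. Over the 250 bases before a start, CCAAT was found in all 17 H2A and all 17 H2B windows, against 33.8% of 32851 windows of all genes. It was not particular to these types, with matches in all 6 H1, 8 of 10 H3 and 3 of 12 H4 windows. The octamer was found in 41.2% of H2A and 41.2% of H2B windows, in none of the 6 H1, 10 H3 and 12 H4 windows, and in 1.6% of all windows. Windows of a facing pair overlap, so 1 site can count for both types, as does the octamer of Hist1h2ae and Hist1h2bg. The H2A and H2B shares are therefore not independent, and Hist1h2be gave more than 1 window. RefSeq windows were found for 61 of the 68 genes, and a match is a string of letters, not a measured binding site.

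Hist1h1c led the H1 genes, which encode linker histones that bind the DNA between nucleosomes. It had 39.6 and 80.2 FPKM in Lf-/- mice 1 and 2, against 43.2 and 44.5 in WT mice 1 and 2. Lf-/- mouse 2 alone stood apart, and the genotypes overlapped (log2 difference 0.36, SE 0.35, adjusted p = 0.911 by limma). The difference was -0.14 without Lf-/- mouse 2 and 0.86 without Lf-/- mouse 1. The gene lies on chromosome 13, 23738808 to 23740367, plus strand, and its transcript runs 840 bases past the hairpin. Hist1h1e had 1.16 and 3.19 in Lf-/- mice 1 and 2, against 0.906 and 0.607 in WT mice 1 and 2. It was the only one of the 13 members with both Lf-/- libraries above both WT libraries, an order shown by 18.5% of genes tested (log2 difference 0.78, SE 0.36, adjusted p = 0.89 by limma). It was also the only one that passed the filter through 1 genotype alone, with both Lf-/- libraries and neither WT library at 1 FPKM or more. Its place among the 13, its order and its difference therefore rest on the genotype where it was high, and nothing is read from them. Its exons overlap those of Hist1h2be on the same strand, so its reads cannot be told apart from those of that gene with certainty. Hist1h1a, Hist1h1b, Hist1h1d and Hist1h1t did not pass the filter, with means between 0.0776 and 0.387. The highest of them, Hist1h1d, had 0.11 and 1.03 in Lf-/- mice 1 and 2, against 0.411 and 0 in WT mice 1 and 2.

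The H1 promoters share a string of letters seldom found in the other types. The 150 bases before the RefSeq starts of Hist1h1c (chr13:23738657-23738806, plus strand, GRCm38.p6) and Hist1h1e (chr13:23622559-23622708, minus strand) are shown because these were the H1 genes with measurable levels. Capitals mark CCAAT, the TATA box letters TATAA, and the H1 box AAACACA, searched on both strands.
Hist1h1c: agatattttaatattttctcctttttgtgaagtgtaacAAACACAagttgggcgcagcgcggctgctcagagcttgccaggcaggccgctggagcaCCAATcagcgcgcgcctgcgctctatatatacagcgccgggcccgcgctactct
Hist1h1e: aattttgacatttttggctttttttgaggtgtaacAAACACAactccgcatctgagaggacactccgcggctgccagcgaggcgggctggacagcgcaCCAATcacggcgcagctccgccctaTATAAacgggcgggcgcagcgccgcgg
Both hold the H1 box and CCAAT in the same order, and the letters TATAA were matched in Hist1h1e only. The H1 box was found in 5 of 6 H1 windows of 250 bases (83.3%), in 2 of 17 H2A, 2 of 17 H2B and no H3 or H4 windows, and in 6.2% of windows of all genes. The mean FPKM was 51.9 for Hist1h1c and 1.46 for Hist1h1e.

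H4 genes came next, with Hist1h4h (chromosome 13, 23531050 to 23531519, plus strand) giving between 46.4% and 62.3% of their sum. H4 is the core histone whose genes all encode nearly the same protein. Hist1h4h had 7.63 and 16.3 FPKM in Lf-/- mice 1 and 2, against 11.9 and 6.93 in WT mice 1 and 2. Lf-/- mouse 2 was highest, WT mouse 2 lowest, and the genotypes overlapped (log2 difference 0.27, SE 0.42, adjusted p = 0.935 by limma). Hist1h4i had 4.55 and 2.85 in Lf-/- mice 1 and 2, against 6.47 and 2.61 in WT mice 1 and 2. Hist1h4m had 0.562 and 3.8 in Lf-/- mice 1 and 2, against 2.34 and 0.738 in WT mice 1 and 2. Hist1h4d had 0.31 and 1.34 in Lf-/- mice 1 and 2, against 1.32 and 0.273 in WT mice 1 and 2. In Hist1h4h, Hist1h4m and Hist1h4d, Lf-/- mouse 2 and WT mouse 1 were the higher mice, while in Hist1h4i WT mouse 1 and Lf-/- mouse 1 were. The sequence of Hist1h4h is near to that of 7 other listed histone genes, so its level may include their reads. Of the 8 H4 members that did not pass the filter Hist1h4c was highest, with 0.633 and 0 in Lf-/- mice 1 and 2 against 1.35 and 0.562 in WT mice 1 and 2.

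H3 genes were low, with a pair of Hist2 genes on top. Hist2h3c1 (chromosome 3, 96246685 to 96248509, plus strand) had 3.52 and 8.02 FPKM in Lf-/- mice 1 and 2, against 5.18 and 5.17 in WT mice 1 and 2. Its neighbour Hist2h3c2 (chromosome 3, 96238108 to 96239127, minus strand) had 2.22 and 5.71 in Lf-/- mice 1 and 2, against 4.85 and 2.40 in WT mice 1 and 2. Hist1h3d had 1.19 and 2.23 in Lf-/- mice 1 and 2, against 3.21 and 1.61 in WT mice 1 and 2. All 3 genes overlapped between genotypes, with log2 differences of 0.05 (Hist2h3c1), 0.06 (Hist2h3c2) and -0.32 (Hist1h3d, SE 0.32, adjusted p = 0.916 by limma). Lf-/- mouse 1 was the lowest mouse in all 3. The other 8 H3 members had means of at most 0.181, that of Hist1h3f, with 0.259 and 0.142 in Lf-/- mice 1 and 2 against 0.249 and 0.0723 in WT mice 1 and 2. Hist1h3b was at 0 in every library.

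H2A genes were the least detected type, with 10 of 19 listed genes at 0 in every library. Hist3h2a (chromosome 11, 58954685 to 58956830, plus strand), whose transcript runs 1643 bases past the hairpin, was the only H2A member to pass the filter. It had 9.99 and 8.51 FPKM in Lf-/- mice 1 and 2, against 9.34 and 11.6 in WT mice 1 and 2. The 4 mice lay close together (log2 difference -0.16, SE 0.16, adjusted p = 0.915 by limma), and Lf-/- mouse 2 was the lowest of them, unlike in Hist1h2bc and Hist1h1c. Exons of Trim17 overlap Hist3h2a on the same strand. Hist1h2al, annotated as a processed pseudogene away from the cluster (chromosome 13, 51202727 to 51203065, minus strand), had 18.9 in WT mouse 1 and was listed at 0 in the other 3 mice. Its sequence is near to that of Hist2h2aa1, Hist2h2aa2 and Hist2h2ac, of which the first 2 were at 0 throughout. The value of 1 mouse decides this gene.

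Summed over the 50 members, FPKM was 155 and 355 in Lf-/- mice 1 and 2, against 226 and 194 in WT mice 1 and 2. The Lf-/- mice were the lowest and the highest of the 4. The means were 255 ± 142 in Lf-/- lung and 210 ± 22.6 in WT lung (SD, n = 2 each), a ratio of 1.22 with an exact two-sided permutation p of 1 where 0.333 is the smallest possible. The ratio was 0.738 without Lf-/- mouse 2 and 1.69 without Lf-/- mouse 1. Without Hist1h1c and Hist1h2bc it turned to 0.905, with sums of 42.6 and 74.3 in Lf-/- mice 1 and 2, against 83.1 and 46.1 in WT mice 1 and 2. By type, the sums of H1 were 41.0 and 84.8 in Lf-/- mice 1 and 2, against 45.1 and 45.2 in WT mice 1 and 2. Those of H2B were 80.8 and 215 in Lf-/- mice 1 and 2, against 110 and 112 in WT mice 1 and 2. Those of H3 were 7.73 and 16.6 in Lf-/- mice 1 and 2, against 14.6 and 9.80 in WT mice 1 and 2, and those of H4 were 14.2 and 26.2 in Lf-/- mice 1 and 2, against 25.7 and 14.3 in WT mice 1 and 2. H2A, without Hist1h2al, showed no such spread, with 10.8 and 12.4 in Lf-/- mice 1 and 2, against 10.8 and 12.1 in WT mice 1 and 2.

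**Figure D3:**
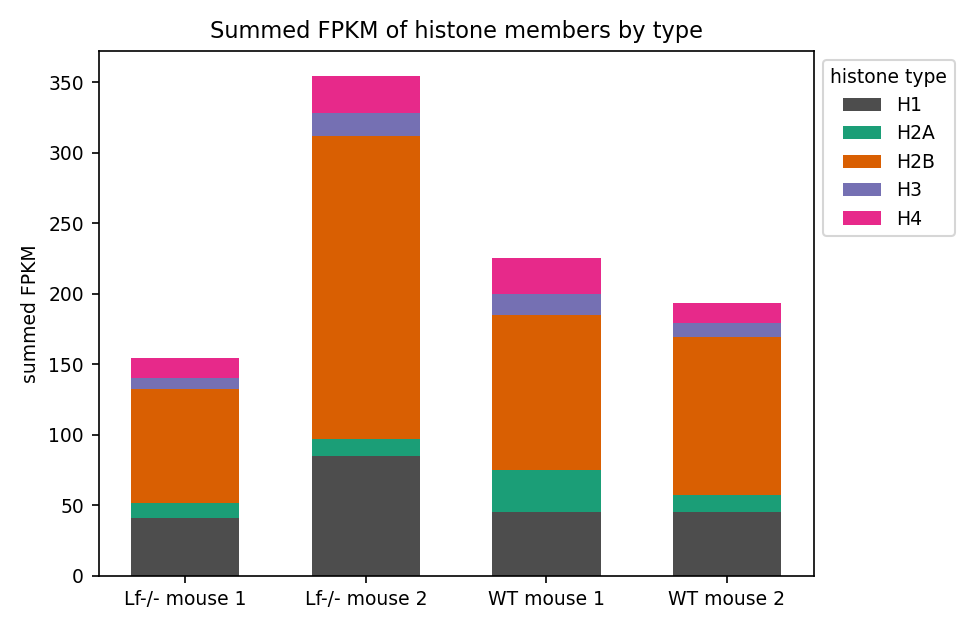
Summed FPKM of the 50 histone members in each library, stacked by histone type on an axis from 0, with Lf-/- mice left of WT mice. The bars reach 155, 355, 226 and 194, and most of each is H2B and H1.

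Over all 50 members, 4 had both Lf-/- libraries below both WT libraries, beside 18.3% of genes above 0 in any library, and 6 had both above, beside 15.9%. The 4 were Hist1h1b, Hist1h3e, Hist1h4n and Hist3h2ba, and only Hist3h2ba reached an FPKM of 1 in a library, with 0.151 and 0.377 in Lf-/- mice 1 and 2 against 1.92 and 0.616 in WT mice 1 and 2. The 6 were Hist1h1e, Hist1h1t, Hist1h2bb, Hist1h2bl, Hist1h3c and Hist2h2bb. The fit without a filter on low values called none of the 50. Of the 50, 3 had an unadjusted p under 0.05 by limma, beside 887 of 17103 genes in that fit. That count is near the share over all genes, and nothing is read from it. The 3 were Hist1h2bl and Hist2h2bb, listed at 0 in both WT mice, and Hist1h4n, listed at 0 in both Lf-/- mice. Their adjusted p was 0.709, 0.85 and 0.871 by limma. All values of these 3 genes lay under 1 FPKM.

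Replication-independent genes for H2A and H3 had the larger sums in every library. Of 11 replication-independent genes tested, 8 were higher and 3 lower in Lf-/- lung (median log2 difference 0.10), 4 had both Lf-/- libraries above both WT libraries, beside 18.5% of genes tested, 1 had the opposite order, beside 17.5%, and none was called by limma, at a smallest adjusted p of 0.89. H3f3b, one of the pair of genes for the variant H3.3, had 173 and 171 FPKM in Lf-/- mice 1 and 2, against 171 and 153 in WT mice 1 and 2. H3f3a and H3f3b together summed to 211 and 202 in Lf-/- mice 1 and 2, against 207 and 189 in WT mice 1 and 2. Replication-dependent genes made up between 3.54% and 7.59% of the summed FPKM of these 2 groups of H3 genes. For H2A, without Hist1h2al and beside 6 variant genes such as H2afx and H2afz, the share was between 7.48% and 9.25%. H1 differed from this, since Hist1h1c and its kin made up 38.4% and 61.9% in Lf-/- mice 1 and 2, and 42.3% and 44.7% in WT mice 1 and 2, the rest being H1f0 and H1fx. H1f0, a linker histone of resting cells, had 60.8 and 48.2 in Lf-/- mice 1 and 2, against 58.0 and 53.3 in WT mice 1 and 2. Whether poly(A)-tailed RNA was selected and how reads with several matches were counted are not given. Both bear on the shares of H1, H2A and H3, which are shares of listed FPKM only.

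**Figure D4:**
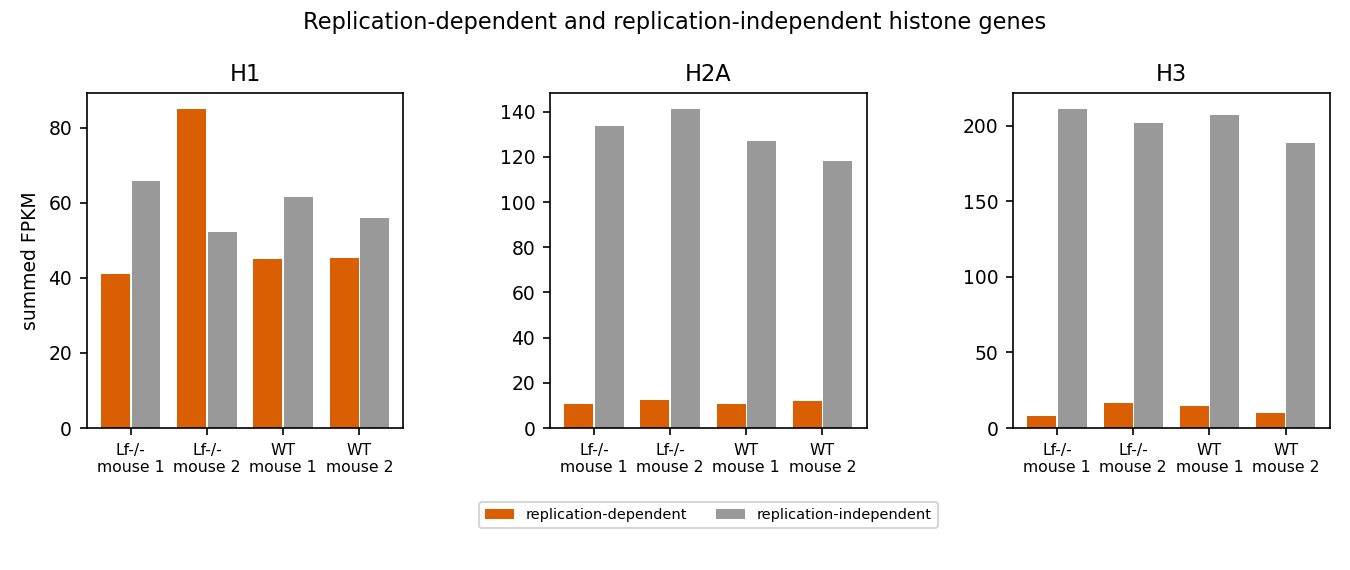
Summed FPKM of replication-dependent and replication-independent genes of types H1, H2A and H3 in each library, on axes from 0, with Lf-/- mice left of WT mice and Hist1h2al left out of H2A. Replication-dependent genes reach at most 7.59% of the H3 total and 9.25% of the H2A total, and between 38.4% and 61.9% of the H1 total.

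Genes of DNA replication did not share the order of the main histone genes across mice. Of 17 S phase genes tested 16 lay lower in Lf-/- lung (median log2 difference -0.29), 10 with both Lf-/- libraries below both WT libraries, beside 17.5% of genes tested, and none was called by limma. The summed FPKM of the S phase list was 81.0 and 61.5 in Lf-/- mice 1 and 2, against 91.4 and 87.3 in WT mice 1 and 2. Rrm2, a subunit of ribonucleotide reductase and the 1 gene of the list with an unadjusted p under 0.05, had 1.60 and 1.53 in Lf-/- mice 1 and 2, against 2.56 and 3.96 in WT mice 1 and 2. In 13 of the 17 genes Lf-/- mouse 2 was the lowest, beside 34.4% of genes tested, while it was the highest in 9 of 13 histone members. Hist1h1e, among those 9, passed the filter through the Lf-/- libraries alone. The summed level of 8 markers of dividing cells was 6.40 and 4.41 in Lf-/- mice 1 and 2, against 10.4 and 13.5 in WT mice 1 and 2. Fewer cells of a type and less RNA per cell cannot be told apart in such tissue. Of 11 tested genes that make or process histone transcripts 10 lay lower (median -0.08), among them Slbp, with 5.85 and 5.81 in Lf-/- mice 1 and 2 against 7.28 and 6.69 in WT mice 1 and 2 (adjusted p = 0.89 by limma).

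Marker lists of several cell types stood apart in Lf-/- mouse 2, some high and some low. The 6 genes of the platelet and megakaryocyte list summed to 48.3 and 83.6 FPKM in Lf-/- mice 1 and 2, against 47.4 and 37.3 in WT mice 1 and 2. None was at 0 in any library, and 5 of 6 were highest in Lf-/- mouse 2, beside 23.8% of genes tested. Gp9, of the platelet receptor for von Willebrand factor, had 6.35 and 10.7 in Lf-/- mice 1 and 2, against 4.93 and 5.20 in WT mice 1 and 2. Pf4, the exception among the 6, was highest in WT mouse 1. It had 9.40 and 8.53 in Lf-/- mice 1 and 2, against 12.8 and 8.37 in WT mice 1 and 2. Alveolar type 1 markers were highest in Lf-/- mouse 2 in 3 of 3 genes, beside the same 23.8%. Their sums were 1675 and 2119 in Lf-/- mice 1 and 2, against 1234 and 1575 in WT mice 1 and 2. The 5 neutrophil markers summed to 441 and 1300.1 in Lf-/- mice 1 and 2, against 676 and 520 in WT mice 1 and 2. That sum was carried by S100a8 and S100a9. Ngp, Camp and Mpo went the other way, with both Lf-/- libraries below both WT libraries, beside 18.3% of genes above 0 in any library. Ngp had 0.392 and 4.29 in Lf-/- mice 1 and 2, against 10.5 and 21.5 in WT mice 1 and 2. Macrophage markers were lowest in Lf-/- mouse 2 in 5 of 5 genes, beside 34.4% of genes tested. Their sums were 309 and 57.6 in Lf-/- mice 1 and 2, against 500.2 and 481 in WT mice 1 and 2. Alveolar type 2 (4 of 4), B cell (5 of 5) and T cell (4 of 4) genes tested were also lowest in Lf-/- mouse 2. Red cell markers, 7 in all, summed to 1676 and 2414 in Lf-/- mice 1 and 2, against 1456 and 2316 in WT mice 1 and 2. Melanocyte markers, also 7, summed to 8.71 and 4.68 in Lf-/- mice 1 and 2, against 8.01 and 105 in WT mice 1 and 2, with Tyr and Tyrp1 at 0 in Lf-/- mouse 2 and WT mouse 1. Pmel had 1.26 and 0.186 in Lf-/- mice 1 and 2, against 0.216 and 30.8 in WT mice 1 and 2. The tissue is labelled as free of tumour cells, and whether that of WT mouse 2 held melanoma cells was not tested. The part of these cells in the levels of histone, S phase and dividing cell genes was not tested.

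**Figure D5:**
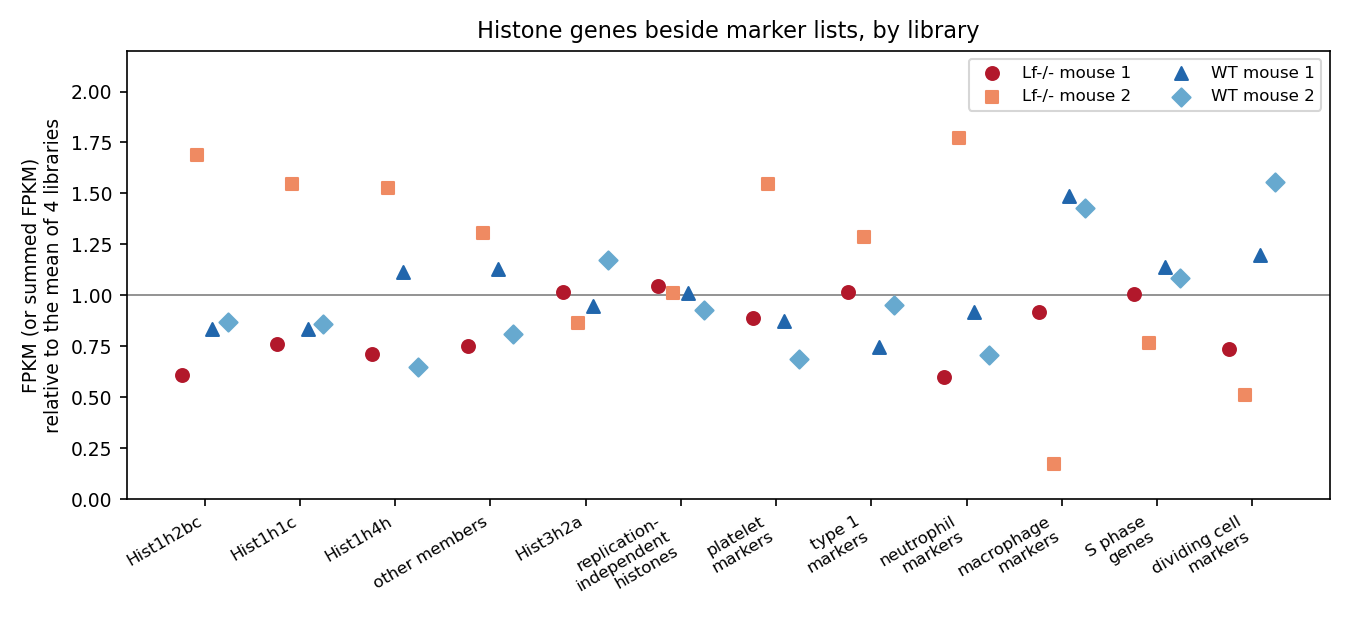
FPKM of single histone genes, and summed FPKM of the other members (without Hist1h2al) and of marker lists, divided by the mean of the 4 libraries, on an axis from 0 with Lf-/- mice left of WT mice. In Lf-/- mouse 2, Hist1h2bc, Hist1h1c and Hist1h4h stand at 1.53 to 1.69, platelet markers at 1.54, type 1 markers at 1.28, neutrophil markers at 1.77, macrophage markers at 0.171 and dividing cell markers at 0.509. The neutrophil sum is carried by S100a8 and S100a9, while Ngp, Camp and Mpo were highest in WT mouse 2.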

How the data were processed

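Each of the 4 libraries is a deposited list of FPKM values per gene symbol. The submitters' processing notes name TopHat, Cufflinks, HTSeq, DESeq and the build GRCm38, without versions or roles. For the annotation, strand setting and scaling between libraries, the method is not given in the sources used here. Each list has 21545 entries, and repeated entries of 39 symbols were summed, which left 21499 genes. FPKM gives no counts, so no counting intervals are given.

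Genes that reached 1 FPKM in 2 or more libraries entered the test as log2(FPKM + 1), a scale that understates changes of low genes. Genotype was the sole term in limma 3.58.1 (R 4.3.3, lmFit, eBayes with a trend, 2 residual and 2.62 prior degrees of freedom). The step was tested on simulated data. Exact permutation tests of 2 mice against 2 cannot go below 0.333. Positions and transcripts came from GENCODE vM21, and BLAST 2.17.0 found near-identical copies. Every member that passed the filter is named with its values, as are the highest other member of each type and the members at the edge of the rule. Further members named by the order of their libraries, their neighbours or their p were chosen after their values were seen. Members, lists and tests were chosen with earlier results of these data known. Tables and figures used Python 3.11.15, pandas 2.3.3 and matplotlib 3.10.9.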

Additional observations from a re-analysis of the deposited data

How the results depend on the processing

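With 2 mice per genotype and FPKM without read totals, small differences and genes near 0 cannot be resolved. Over all genes 3 were called, against 0 with no filter on low values, and between 0 and 1 when a library was left out. No histone gene was called under any alternative. The mouse numbers name separate animals, and same-numbered deviations correlated at -0.336 over 12573 genes. With the number as a replicate block 0 genes were called, and the summed histone ratio was 1.12 as a geometric mean of the ratios within numbers. That ratio was 1.22 and lay between 0.738 and 1.69 without each library in turn, 0.905 without Hist1h1c and Hist1h2bc, and between 1.09 and 1.29 under the other alternatives. Leaving out that pair, or Hist1h2al, was chosen after seeing the data. The median log2 difference lay between -0.19 and 0.50 without each library. The count of 4 members with both Lf-/- libraries below both WT libraries was 2 after quantile normalization (12.7% of all genes above 0 show that order there, against 18.3% without it) and 0 among the 13 members that passed the filter (17.5% of genes tested). It was between 6 and 17 without each library, where the order sets 1 library against 2, between 29% and 39% of all genes show it, and the change from 4 is not a result about the members. Leaving out a library turned the direction in 11 of 13 named members, and the other alternatives in none. The log2 difference lay between -0.14 and 0.86 for Hist1h1c, -0.48 and 0.98 for Hist1h2bc, -0.14 and 0.31 for Hist1h2be, -0.66 and 0.029 for Hist1h3d, -0.41 and 0.45 for Hist1h4d, -0.23 and 0.78 for Hist1h4h, -0.69 and 0.36 for Hist1h4i, -0.29 and 0.99 for Hist1h4m, -0.0245 and 0.17 for Hist2h2be, -0.45 and 0.55 for Hist2h3c1, and -0.47 and 0.59 for Hist2h3c2. Hist3h2a kept its direction without each library in turn. Hist1h1e was fitted only without WT mouse 1 (0.90) and without WT mouse 2 (0.66), since it did not pass the filter without either Lf-/- mouse. The cause was not tested.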

Other observations

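Histone chaperones, which carry histones to and from chromatin, were measured beside the histone genes themselves. Of 12 tested, 8 lay lower and 4 higher in Lf-/- lung (median log2 difference -0.11), 4 had both Lf-/- libraries below both WT libraries and 2 the opposite order, beside 17.5% and 18.5% of all genes tested, and none was called by limma (smallest adjusted p = 0.89). Asf1b, the form of the H3 and H4 chaperone found in dividing cells, had 1.29 and 1.17 FPKM in Lf-/- mice 1 and 2, against 1.72 and 2.24 in WT mice 1 and 2. Its relative Asf1a had 6.75 and 5.96 in Lf-/- mice 1 and 2, against 5.19 and 5.47 in WT mice 1 and 2. Chaf1b, of the chaperone complex that works at replication forks, had 1.19 and 0.817 in Lf-/- mice 1 and 2, against 1.52 and 1.25 in WT mice 1 and 2. Hira, of the complex that deposits H3.3, had 7.28 and 6.79 in Lf-/- mice 1 and 2, against 6.34 and 6.49 in WT mice 1 and 2.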
